A study of Mus musculus with 14 samples.

Results

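Stem and progenitor transcription factors are the proteins that keep blood progenitors uncommitted or choose among their fates, and 9 of their genes were followed here: Meis1, Mecom, Myb, Erg, Fli1, Lyl1, Etv6, Ikzf1 and Bcl11a. They were found by name, through the transcript records that the array files give for each probe. All 9 genes were on the array, with 15 of its 41174 probes, out of 33269 genes in all. Each gene kept at least 1 probe after the filter on dim signals, and 14 of the 15 probes passed it.

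The cells were FDCPmix, a line of mouse marrow progenitors that needs interleukin-3 to grow and has several blood lineages within its reach. Every sample was grown in the same maintenance culture, with horse serum and medium conditioned by interleukin-3 secreting cells, so differentiation was not induced by a change of medium. Cells were sorted by surface Kit, the stem cell factor receptor, by Gr1, an antigen of granulocytes, and by Sca1, the product of Ly6a. Each of 4 sorted fractions was measured on 3 arrays, and 2 more arrays held unsorted (unfractionated) cells, 14 in all. The fractions were Gr1+ cells, Kit-Gr1- cells, and Kit+Gr1- cells divided by their Sca1 into Sca1hi and Sca1lo cells; the last pair together is called Kit+Gr1- cells below. The series' design text calls the replicates biological. All fractions come from 1 line in culture, which stands in for progenitors of the marrow only as far as that line does. In such bulk samples, fewer cells of a type and less RNA per cell cannot be told apart.

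These factors work in overlapping complexes. Meis1 joins Hox and Pbx proteins on DNA, Lyl1 binds as a pair with an E protein, and Erg and Fli1 are ETS factors that share targets with them in stem cells and megakaryocytes. Etv6 is an ETS repressor, Myb drives progenitor proliferation, Mecom (Evi1) sustains stem cells, and the zinc finger factors Ikzf1 (Ikaros) and Bcl11a act in lymphoid development and, for Bcl11a, in silencing of embryonic globin.

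Between 79.5% and 99.5% of spots on an array were well above background. The signal was compressed on 4 arrays (Sca1hi replicate 3, Sca1lo replicate 3, Gr1+ replicate 3 and unfractionated replicate 1), where the interquartile range of log2 signals was 1.78 to 3.42, against 4.17 to 4.92 on the others. Each difference of over 2-fold in the probe that stands for one of the 9 genes is given with and without these arrays. Kit RNA differed by -2.21 ± 0.22 on the log2 scale between Kit-Gr1- and Kit+Gr1- cells (adjusted p = 5.63e-04), and Ly6c1, one of the genes behind the Gr1 antigen, was higher in Gr1+ cells by 6.74 ± 0.71 (adjusted p = 7.18e-05). Ly6a was higher in Sca1hi than in Sca1lo cells by 2.32 ± 0.31 without passing the test (adjusted p = 0.148), and it was higher in Gr1+ than in Kit+Gr1- cells by 4.15 ± 0.27 (adjusted p = 2.79e-06).

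The promoters of Meis1, Ikzf1 and Bcl11a, the genes described at most length, are shown first. Each is the 250 bases before an annotated start, from RefSeq on GRCm38.p6 and written 5′ to 3′ along the gene's strand. Capitals mark GGAA, the core that ETS factors such as Erg, Fli1 and Etv6 bind, and TTCC, the same core on the other strand; the letter runs share no bases. Meis1 lies on the minus strand (chr11:19018970-19019219), Ikzf1 on the plus strand with starts at chr11:11685675-11685924 and chr11:11689927-11690176, and Bcl11a on the plus strand (chr11:24080445-24080694).
Meis1: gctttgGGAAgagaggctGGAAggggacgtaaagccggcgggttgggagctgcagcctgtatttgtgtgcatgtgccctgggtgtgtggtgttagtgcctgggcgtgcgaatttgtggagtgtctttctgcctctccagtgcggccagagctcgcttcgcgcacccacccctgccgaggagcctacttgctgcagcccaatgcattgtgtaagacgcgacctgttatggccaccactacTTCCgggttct
Ikzf1 first start: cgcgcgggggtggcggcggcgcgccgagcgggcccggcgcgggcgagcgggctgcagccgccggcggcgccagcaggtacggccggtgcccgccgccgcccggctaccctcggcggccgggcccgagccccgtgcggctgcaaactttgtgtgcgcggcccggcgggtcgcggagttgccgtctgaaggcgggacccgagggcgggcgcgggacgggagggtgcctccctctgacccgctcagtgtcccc
Ikzf1 second start: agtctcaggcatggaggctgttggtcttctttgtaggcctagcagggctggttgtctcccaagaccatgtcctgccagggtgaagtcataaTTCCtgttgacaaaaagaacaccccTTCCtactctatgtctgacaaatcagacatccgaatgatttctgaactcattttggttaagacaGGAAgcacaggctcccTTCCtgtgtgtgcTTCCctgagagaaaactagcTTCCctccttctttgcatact
Bcl11a: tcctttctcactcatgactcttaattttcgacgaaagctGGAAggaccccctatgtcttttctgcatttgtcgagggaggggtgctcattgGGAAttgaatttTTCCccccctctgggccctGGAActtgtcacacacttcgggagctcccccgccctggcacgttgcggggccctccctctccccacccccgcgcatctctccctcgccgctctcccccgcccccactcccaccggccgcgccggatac
The Meis1 stretch held 3 of these cores, the first Ikzf1 start 0, the second 6 and the Bcl11a stretch 4. Such a core stood in 93.4% of the 32851 promoter stretches of that length, with a median of 3 in each, so most promoters hold one. RefSeq starts were matched for 8 of the 9 genes.

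Levels below are the log2 of the processed signal minus the array's own 75th percentile, and they are compared within a probe only. Differences are given with their standard error (SE) from limma. Rose and fell are used where the Benjamini-Hochberg adjusted p, taken over 31243 genes, was below 0.05 and the difference was 2-fold or more; such genes are called.

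**Figure D1:**
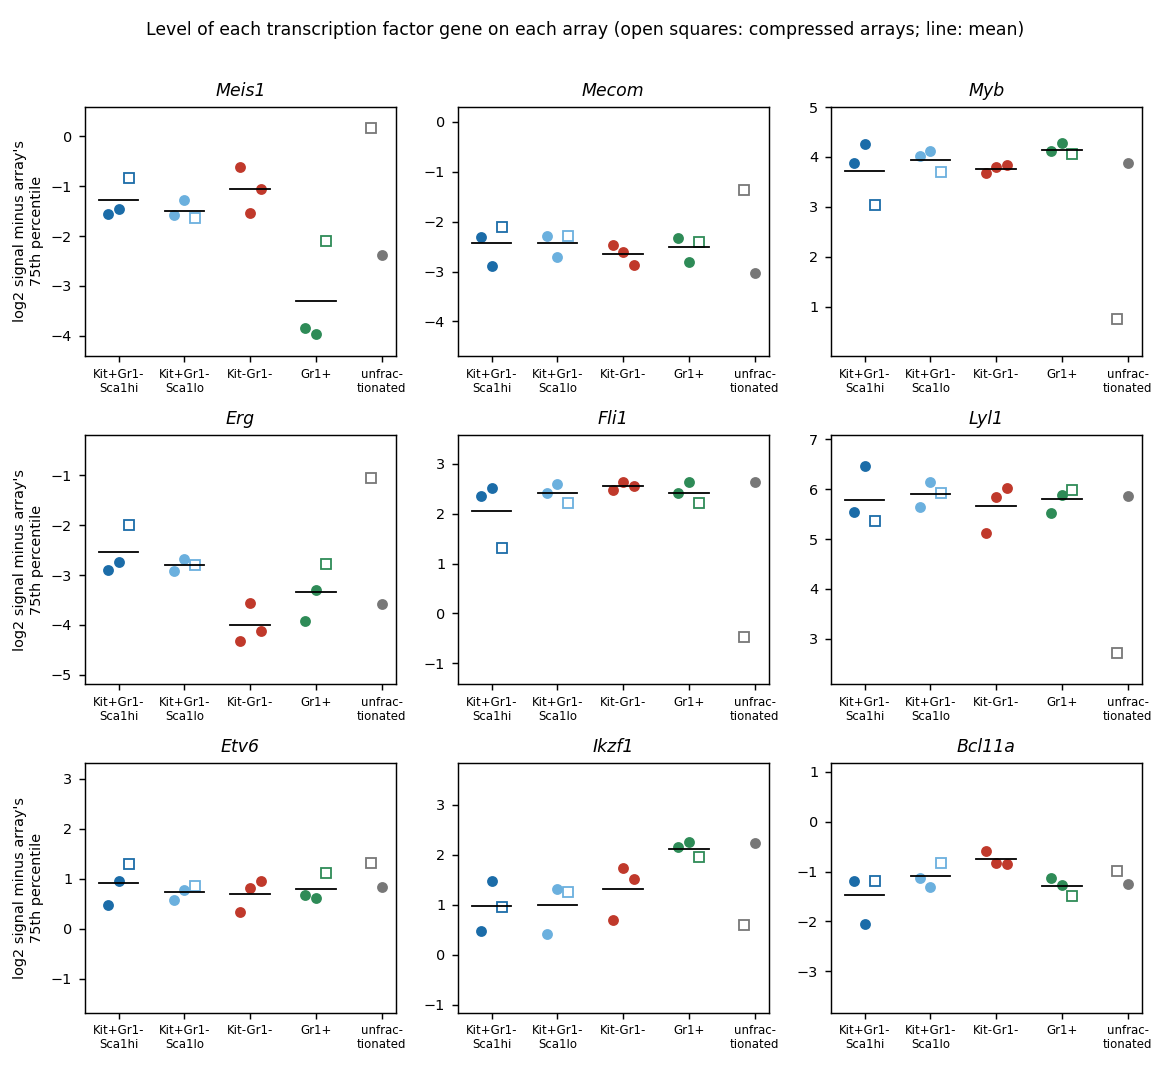
Level of each of the 9 genes on every array, as log2 signal minus the array's 75th percentile, by fraction; points are arrays, open squares are the 4 compressed arrays and lines are means of 3. Every vertical axis spans at least 5 log2 units. The Gr1+ arrays lie lowest for Meis1 and highest for Ikzf1 among sorted fractions, and the Kit-Gr1- arrays lie below all Kit+Gr1- arrays for Erg.

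The first comparison asked which factors Gr1+ cells carried at another level than Kit+Gr1- cells (3 against 6 arrays). Meis1 fell and Ikzf1 rose, and the other 7 genes did not pass the test. These 2 of 9 stand beside 4.33% of all genes called in this comparison, and the same 2 were the ones whose arrays did not overlap between the sides, against 10.1% of all genes.

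The Meis1 level was -3.84, -3.97 and -2.09 in Gr1+ cells. It was -1.55, -1.46 and -0.84 in Sca1hi cells, -1.58, -1.28 and -1.64 in Sca1lo cells, and -0.62, -1.53 and -1.05 in Kit-Gr1- cells. Every Gr1+ array thus lay below every other sorted array, and the array nearest to them was the compressed Gr1+ replicate 3. The difference from Kit+Gr1- cells was -1.91 ± 0.38 (3.75-fold lower, adjusted p = 0.00698). The Kit+Gr1- arrays on slide 1 are replicate 1 of Sca1hi and of Sca1lo. Slide 2 holds only Sca1lo replicate 2 of them and slide 3 only Sca1hi replicate 2, here and for the genes below. Within slides 1, 2 and 3 the difference was -2.27, -2.69 and -0.63, the last on the slide that holds the compressed Gr1+ array. Without the compressed arrays it was -2.44, and it stayed called. With Gr1+ replicate 2 left out it was -1.58 and no longer passed (adjusted p = 0.0685).

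A second Meis1 probe, A_52_P670612, read lower in Gr1+ replicates 1 and 2, at -4.03 and -4.47, but at -0.64 in the compressed replicate 3. Its Kit+Gr1- levels ran from -2.57 to -1.79 apart from 0.46 on the compressed Sca1hi replicate 3. The groups therefore overlapped, and the difference of -1.30 ± 0.77 did not pass (adjusted p = 0.525 over single probes, where 4.32% were called). Without the compressed arrays it was -1.96 ± 0.29 (adjusted p = 0.00268), and without Gr1+ replicate 3 alone -2.50 (adjusted p = 0.0237). Both of these refits leave out Gr1+ replicate 3, and no other refit of this probe passed. Array medians gave -1.28 ± 0.62 (adjusted p = 0.643) and quantile normalization -1.22 ± 0.75 (adjusted p = 0.506). With Gr1+ replicate 2 left out it was -0.59 ± 0.83.

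Ikzf1, which encodes the chromatin-bound zinc finger protein Ikaros, moved the other way. Its level was 2.15, 2.26 and 1.95 in Gr1+ cells, 0.48, 1.48 and 0.96 in Sca1hi cells, and 0.42, 1.32 and 1.25 in Sca1lo cells. The lowest Gr1+ array lay above the highest Kit+Gr1- array, and the Kit+Gr1- arrays spread more widely among themselves than the Gr1+ arrays did. The difference was 1.13 ± 0.28 (2.20-fold higher, adjusted p = 0.0231). It was 1.70, 0.94 and 0.46 within slides 1, 2 and 3 and 1.28 without the compressed arrays. The size lies near the 2-fold limit, and the call was lost with Sca1lo replicate 1 left out (0.99), with Gr1+ replicate 1 left out (1.12, adjusted p = 0.0858) and with Gr1+ replicate 2 left out (1.06, adjusted p = 0.140).

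The ETS factor Erg had a difference of -0.67 ± 0.34 between Gr1+ and Kit+Gr1- cells, which did not pass (adjusted p = 0.404). Its Gr1+ levels of -3.93, -3.31 and -2.78 overlapped the Kit+Gr1- range of -2.92 to -2.00. Myb was at 4.12, 4.27 and 4.05 in Gr1+ cells and between 3.04 and 4.25 in Kit+Gr1- cells, a difference of 0.32 ± 0.22. For the other members the difference was 0.18 ± 0.23 (Fli1), -0.08 ± 0.26 (Mecom), -0.05 ± 0.28 (Lyl1), -0.02 ± 0.21 (Etv6) and -0.02 ± 0.23 (Bcl11a). The 95% intervals of these 6 differences, Myb included, lay between -0.65 and 0.80, so a 2-fold change of the gene's standing probe falls outside each of them. With array medians the values were 0.34 ± 0.49 for Myb, 0.20 ± 0.48 for Fli1 and -0.03 ± 0.51 for Lyl1. A 2-fold change lies within 2 SE of these, so its exclusion depends on the processing.

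The Gr1+ fraction also carried more RNA of marker genes of myeloid cells. All 9 neutrophil markers rose, and 4.33% of all genes were called in this comparison. Summed neutrophil levels were 1111 to 1694 times the array's 75th percentile signal, against 26.6 to 191 in Kit+Gr1- cells. Of the other lists, 4 of 5 eosinophil, 3 of 3 measured monocyte and macrophage, and 5 of 7 mast cell and basophil markers rose, while 0 of 6 measured lymphoid markers were called and their sums were 1.97 to 2.84 against 1.35 to 3.21. The part of these cells in the Meis1 and Ikzf1 differences was not tested.

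**Figure D2:**
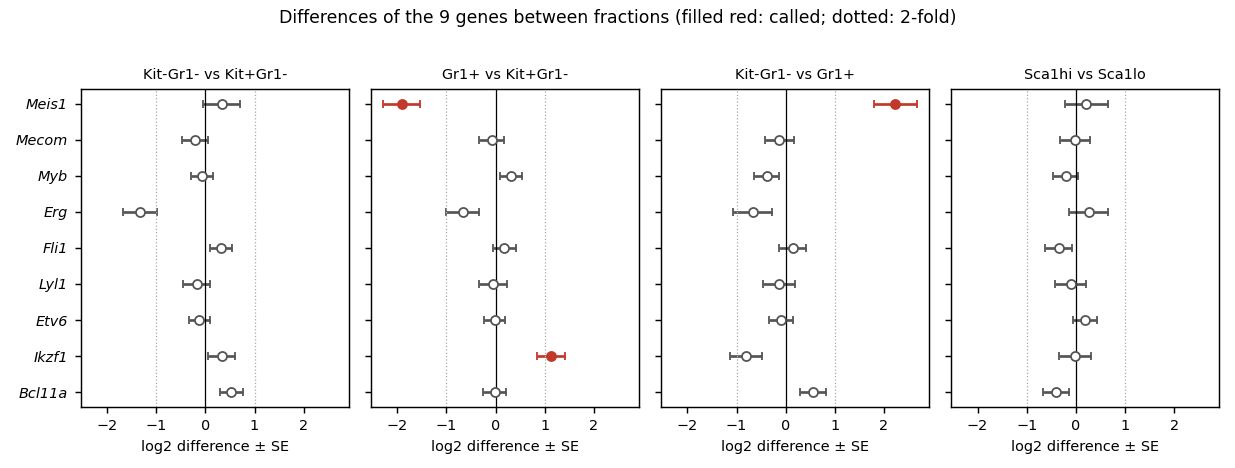
Difference of each gene in the 4 comparisons, as the log2 level of the first fraction minus the second, with bars of 1 SE from limma on 12 arrays. Filled red points passed the test: Meis1 at -1.91 and Ikzf1 at 1.13 for Gr1+ against Kit+Gr1-, and Meis1 at 2.23 for Kit-Gr1- against Gr1+.

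Kit-Gr1- cells, the other fraction outside the Kit+Gr1- gate, were compared with the same 6 arrays, so this comparison and the one before share their control samples. No member passed the test, beside 0.346% of all genes. An unadjusted p under 0.05 was reached by 1886 of 31243 genes, near the share of 0.05 reached with no difference anywhere and independent arrays. In the same fit 264 genes reached it between Sca1hi and Sca1lo cells. Same-numbered Sca1hi, Sca1lo and Gr1+ arrays deviated together, which the fit left in its error. That share is therefore not a sure benchmark here. By standing probes, only Erg had arrays that did not overlap, 1 of 9 members against 5.93% of all genes.

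The Erg level was -4.32, -3.57 and -4.12 in Kit-Gr1- cells, -2.90, -2.73 and -2.00 in Sca1hi cells, and -2.92, -2.68 and -2.79 in Sca1lo cells. All Kit-Gr1- arrays lay below all Kit+Gr1- arrays. The difference was -1.33 ± 0.34 (2.52-fold lower), which did not pass after adjustment (adjusted p = 0.172), and the median of all genes was -0.23. Within slides 1, 2 and 3 it was -1.41, -0.89 and -1.40, and without the compressed arrays -1.20 (adjusted p = 0.118).

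Meis1 in Kit-Gr1- cells did not depart from Kit+Gr1- cells beyond the error, at 0.33 ± 0.38 (95% interval -0.50 to 1.15). Ikzf1, at 0.70, 1.73 and 1.51, differed by 0.33 ± 0.28, Fli1 by 0.32 ± 0.23 and Mecom by -0.21 ± 0.26. The values for Lyl1, Etv6 and Myb were -0.18 ± 0.28, -0.12 ± 0.21 and -0.07 ± 0.22. Among these genes the intervals reached from -0.79 to 1.15. Scaling by array medians moved the median of all genes in this comparison from -0.23 to 0.09, and with it the values of Myb, Mecom, Lyl1 and Etv6 turned to 0.26, 0.11, 0.14 and 0.20. For Myb, quantile normalization gave -0.29 ± 0.08 and the fit without the compressed arrays -0.30 ± 0.12, neither called. The second Myb probe gave -0.32 ± 0.13, which did not pass (adjusted p = 0.688 over single probes). Its Kit-Gr1- levels of -0.54, -0.27 and -0.52 lay below all its Kit+Gr1- levels, which ran from -0.19 to -0.03.

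Bcl11a gave unlike answers from its 2 probes. The brighter probe, A_51_P263004, which stands for the gene, was at -0.59, -0.83 and -0.85 in Kit-Gr1- cells, -1.19, -2.06 and -1.19 in Sca1hi cells, -1.13, -1.31 and -0.82 in Sca1lo cells, and -1.13, -1.27 and -1.50 in Gr1+ cells. Its Kit-Gr1- arrays were among the highest but met the range of the Sca1lo arrays. The difference from Kit+Gr1- cells was 0.53 ± 0.23 (adjusted p = 0.687).

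The other Bcl11a probe, A_51_P262998, was well above background on all 3 Kit-Gr1- arrays, at -2.13, -2.82 and -2.54 (272, 119 and 131 scanner units). It was not well above background on any Gr1+ or Sca1lo array, and among Sca1hi arrays only on the compressed replicate 3, at -5.67. Taken against the background of those arrays, it was at least 10.5-fold higher in Kit-Gr1- than in Gr1+ cells and at least 8.38-fold higher than in Sca1lo cells. Against Sca1hi cells, with 1 of 3 arrays measured, the same calculation gave 9.94-fold.

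This probe passed the filter on dim signals through the Kit-Gr1- arrays, the group where it is high, so its values are given as a description with no test. Where the probes lie in the Bcl11a transcripts was not analysed here.

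**Figure D3:**
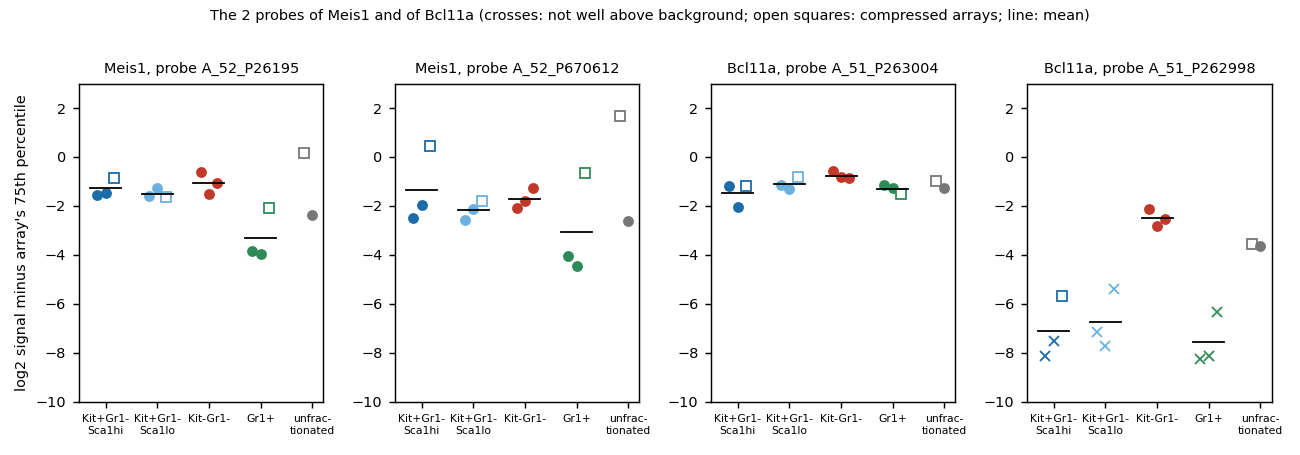
Both probes of Meis1 and of Bcl11a on every array, as log2 signal minus the array's 75th percentile; crosses mark spots not well above background, open squares the compressed arrays and lines the means of 3. Both Meis1 probes are lowest on Gr1+ replicates 1 and 2, and the right-hand Bcl11a probe stands at -2.82 to -2.13 on the Kit-Gr1- arrays alone among sorted fractions.

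Markers of other cells moved with the Kit-Gr1- fraction. Of the measured markers, 5 of 8 red cell and 3 of 5 megakaryocyte genes rose against Kit+Gr1- cells, beside 0.346% of all genes called. Summed red cell levels were 25.9 to 48.0 times the 75th percentile signal, against 2.51 to 5.74 in Kit+Gr1- cells. Gata1, the GATA factor of these lineages, was higher by 2.08 ± 0.17 (adjusted p = 1.12e-04). Of 7 mast cell and basophil markers 0 were called and 6 had positive differences, and their sums of 123 to 288 overlapped the 64.4 to 181 of Kit+Gr1- cells. Only the arrays of Mcpt8 (2.53 ± 0.52, adjusted p = 0.0657) and Ms4a2 (1.41 ± 0.27, adjusted p = 0.0507) did not overlap, 2 of 7 against 5.93% of all genes. The part of these cells in the Erg and Bcl11a values was not tested.

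Set directly against Gr1+ cells (3 against 3 arrays), Kit-Gr1- cells had more Meis1 RNA, by 2.23 ± 0.44 (4.71-fold, adjusted p = 0.00866). It was the 1 member called, beside 4.10% of all genes. The difference was 3.22, 2.44 and 1.04 within slides 1, 2 and 3, and 2.84 without the compressed arrays (adjusted p = 4.82e-04). The call was lost with Kit-Gr1- replicate 1 left out (2.01, adjusted p = 0.0537) and with Gr1+ replicate 2 left out (1.90, adjusted p = 0.0567). The second Meis1 probe gave 1.33 ± 0.89 (adjusted p = 0.607 over single probes, where 4.11% were called), and 2.54 ± 0.31 without the compressed arrays (adjusted p = 0.00151). Without Gr1+ replicate 3 alone this probe also passed (2.54, adjusted p = 0.0485), and it passed in no other refit. Quantile normalization gave 1.30 ± 0.87 (adjusted p = 0.587), and leaving out Gr1+ replicate 2 gave 0.62 ± 0.93.

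Arrays did not overlap for 4 of 9 members here, against 27.8% of all genes: Meis1 and Bcl11a were higher and Ikzf1 and Myb lower in Kit-Gr1- cells. The Ikzf1 difference was -0.81 ± 0.32 (adjusted p = 0.221), that of Bcl11a 0.55 ± 0.26 (adjusted p = 0.359) and that of Myb -0.39 ± 0.26 (adjusted p = 0.624). Myb levels in Kit-Gr1- cells were 3.67, 3.80 and 3.83. A second Myb probe read -0.54, -0.27 and -0.52 there and -0.06, -0.14 and -0.22 in Gr1+ cells, also without overlap. Differences of the rest were -0.67 ± 0.40 (Erg), 0.14 ± 0.27 (Fli1), -0.14 ± 0.32 (Lyl1), -0.13 ± 0.30 (Mecom) and -0.10 ± 0.24 (Etv6).

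Within the Kit+Gr1- gate, no member passed the test between Sca1hi and Sca1lo cells. Over all genes limma called 0 (0%), and 2 with the replicate number as a block. An unadjusted p under 0.05 was reached by 264 of 31243 genes, far below a share of 0.05. Same-numbered Sca1hi and Sca1lo arrays deviated together from their group means (correlations of 0.68 to 0.86), which the fit left in its error. The lack of calls therefore says little about small differences. No member had separate arrays, against 3.20% of all genes. The differences were -0.40 ± 0.26 for Bcl11a, -0.35 ± 0.27 for Fli1, 0.26 ± 0.40 for Erg, 0.21 ± 0.44 for Meis1 and -0.21 ± 0.26 for Myb. Those of Etv6, Lyl1, Mecom and Ikzf1 were 0.18 ± 0.24, -0.11 ± 0.32, -0.02 ± 0.30 and -0.02 ± 0.32. The intervals ran from -0.96 to 1.16, and those of Meis1 and Erg include a 2-fold difference.

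A moderated F-test over the 4 fractions asked whether a gene differed anywhere. It called Meis1 (adjusted p = 0.0216), 1 of 9 members, beside 5.11% of all genes. Ikzf1 (adjusted p = 0.133) and Erg (adjusted p = 0.147) did not pass. From the lowest mean, the Meis1 order was Gr1+ (-3.30 ± 1.05, SD, n = 3), Sca1lo (-1.50 ± 0.19), Sca1hi (-1.28 ± 0.39) and Kit-Gr1- (-1.07 ± 0.46), and the last 3 overlapped. For Ikzf1 it was Sca1hi (0.98 ± 0.50), Sca1lo (1.00 ± 0.50), Kit-Gr1- (1.31 ± 0.54) and Gr1+ (2.12 ± 0.16), and the first 3 overlapped. For Erg it was Kit-Gr1- (-4.00 ± 0.39), Gr1+ (-3.34 ± 0.58), Sca1lo (-2.80 ± 0.12) and Sca1hi (-2.54 ± 0.48), each overlapping its neighbour.

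Of the 5 genes with no call and close levels, Myb stayed between 3.04 and 4.27, although its Kit-Gr1- and Gr1+ arrays did not overlap. Its second probe stayed between -0.54 and -0.03, with the Kit-Gr1- arrays lowest. Lyl1, the partner of E proteins, stayed between 5.12 and 6.47 on all sorted arrays. Fli1 stayed between 1.31 and 2.64, with its lowest level on the compressed Sca1hi replicate 3, and its second probe between 0.58 and 1.79. Etv6 stayed between 0.33 and 1.30, and its second probe between 0.36 and 1.19. Mecom stayed between -2.89 and -2.11, while its other probe, A_51_P437349, was well above background only on the compressed Sca1hi replicate 3 and Gr1+ replicate 3 among sorted arrays and was the 1 probe left out.

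The genes around the factors were taken as lists of family relatives, complex partners, other regulators and known targets. None of the 18 listed relatives was called in any comparison, a list that leaves out Tal1, which is counted among the partners. In Gr1+ against Kit+Gr1- cells the largest differences were 0.99 ± 0.83 for Bcl11b and 0.65 ± 0.19 for Ets2 (adjusted p = 0.0543). Of 22 measured partners, 1 fell in Gr1+ cells, beside 4.33% of all genes called: Tcf4, an E protein, with a difference of -1.36 ± 0.24 (adjusted p = 0.00320). Against Gr1+ cells, Kit-Gr1- cells had more Tal1, a close relative of Lyl1, by 1.77 ± 0.32 (adjusted p = 0.00459), and more Tcf4, by 1.27 ± 0.28 (adjusted p = 0.0169). The partners' median was -0.20 for Gr1+ against Kit+Gr1- cells, with -0.04 over all genes.

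Beside 4.33% of all genes called in Gr1+ against Kit+Gr1- cells, 4 of the 12 other regulators fell and 2 rose. Mycn, a growth regulator, fell the most among them (-2.50 ± 0.27, adjusted p = 8.28e-05), followed by Zfpm1, the GATA cofactor FOG1 (-2.28 ± 0.28, adjusted p = 2.25e-04). The repressor Gfi1b (-1.42 ± 0.24) and Sox4 (-1.36 ± 0.23) fell too. Id2, an inhibitor of E proteins, rose by 2.41 ± 0.32 (adjusted p = 4.67e-04), and Satb1, a chromatin organizer, by 1.38 ± 0.24. In Kit-Gr1- against Kit+Gr1- cells 0 of the 12 were called, the nearest being Zfpm1 at 1.31 ± 0.28 (adjusted p = 0.0711).

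Of 11 measured targets, 4 rose and 2 fell in Kit-Gr1- against Kit+Gr1- cells, beside 0.346% of all genes called. The targets' median was 0.61, with -0.23 over all genes. The platelet genes Pf4 (2.18 ± 0.36, adjusted p = 0.0213), Gp1ba (1.96 ± 0.20, adjusted p = 8.48e-04) and Gp9 (1.93 ± 0.28, adjusted p = 0.00924) rose, as did Hbb-y, an embryonic globin (1.86 ± 0.29, adjusted p = 0.0152). Pf4, Gp1ba and Gp9 are the same 3 genes counted above among the megakaryocyte markers, so the counts are not separate results. Cd34, a progenitor surface protein (-1.72 ± 0.25, adjusted p = 0.0109), and Kit fell. Kit is the antigen of the sort, so its fall was set by the gate; without it 4 of 10 targets rose and 1 fell, with a median of 1.00. In Gr1+ cells Gp1ba (-1.71 ± 0.20, adjusted p = 1.94e-04) was the 1 of 11 that fell, and none rose, beside 4.33% of all genes called. Set directly against Gr1+ cells, Kit-Gr1- cells had 6 of 10 targets other than Kit higher and 1 lower, beside 4.10% of all genes called. The largest of these differences were those of Gp1ba (3.66), Gp9 (2.79) and Hbb-y (2.47).

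**Figure D4:**
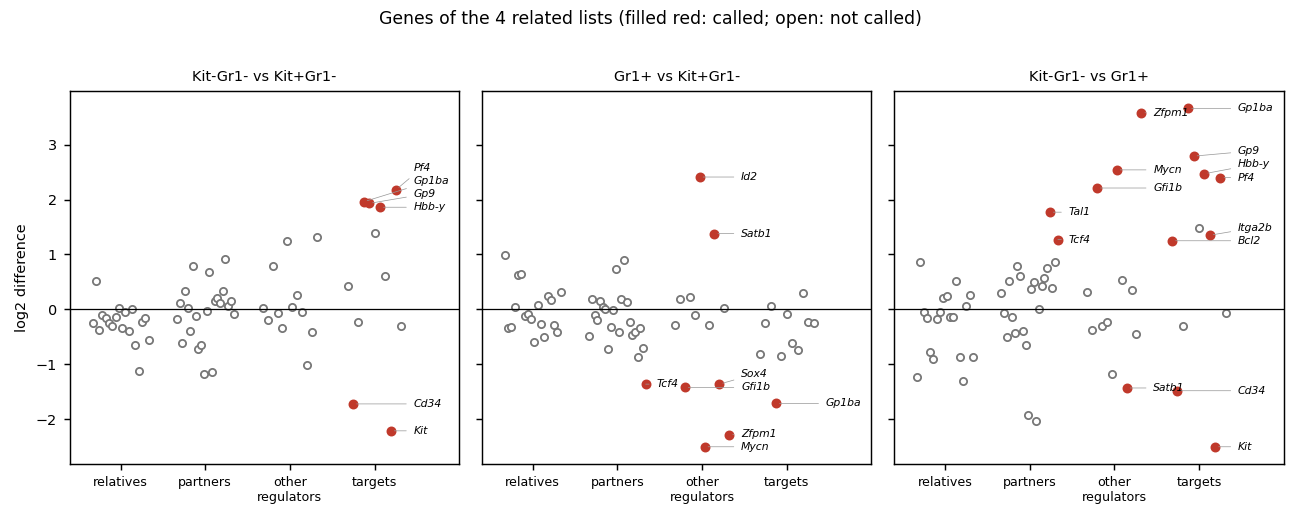
Log2 difference of each measured gene of the 4 related lists in 3 comparisons; filled red points passed the test and are named, open points did not. No relative is filled, and the filled partners are Tcf4 and Tal1.

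The genes most like each member in profile were taken by Pearson correlation of quantile-normalized levels over the 12 sorted arrays, which share slides and array quality. For Meis1 these were Psmc2 (0.975), Slc14a1 (0.970) and Bms1 (0.966), and for Ikzf1 S100a9 (0.973), Ms4a3 (0.961) and S100a8 (0.961). For Bcl11a they were Chpf (0.962), Acp5 (0.942) and Atp1b2 (0.922), for Erg Dnttip1 (0.917), Mettl26 (0.903) and Cgas (0.894), for Myb Frat2 (0.923), Slc28a2 (0.908) and Arhgef18 (0.908), and for Lyl1 H1f4 (0.948), Idh2 (0.941) and Zfp764 (0.935). Over the 9 sorted arrays that were not compressed these values ranged from 0.899 to 0.984.

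For Mecom, Fli1 and Etv6 the likeness moved with the compressed arrays. The nearest genes were Lgr6 (0.988), Zfp784 (0.987) and Slx4ip (0.987) for Mecom, Olfr1276 (0.964), Olfr1153 (0.960) and Cyb5r2 (0.957) for Fli1, and Arhgef25 (0.971), Rhox5 (0.971) and Arntl (0.970) for Etv6. Without the compressed arrays the same pairs had correlations of 0.676 to 0.826.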

How the data were processed

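RNA of 14 samples was hybridized to single-colour (Cy3) Agilent arrays, read with Agilent Feature Extraction 10.1.1.1, per the file headers. The deposited files give each spot's processed intensity, background-subtracted within the array, and the deposited series matrix holds its unscaled log2 (largest difference 5e-09; column medians 6.82 to 12.32). The 9 genes and all lists were chosen with earlier results of these data known.

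Control and outlier-flagged spots were left out, spots of a probe averaged, and log2 processed intensity scaled by each array's 75th percentile. Symbols came from the GRCm38.p6 RefSeq table (23374 of 41174 probes). Probes stayed in with 3 or more of the 12 sorted arrays well above background, and the kept probe of highest mean stood for its gene. limma 3.58.1 in R 4.3.3 (lmFit, eBayes with trend) was fitted to these arrays with 4 groups and no covariates. The unfractionated pair was left out because 1 of its arrays stands far apart. Tests were two-sided. Same-numbered Sca1hi, Sca1lo and Gr1+ arrays deviated together from their group means, with correlations of 0.61 to 0.86. Replicate 3 is compressed in each of these fractions, so this pairing check cannot tell pairing of samples from array quality. Kit-Gr1- arrays, none of them compressed, did not deviate with the others (-0.30 to 0.18). The fit was tested on simulated data with independent noise in each gene and array. Those data lack the shared deviations of same-numbered arrays, so they cannot show how such deviations affect the tests. The files lack mean spot signals, so the normexp alternative (offset 50) used median signals. All 9 members are named in every comparison; from each list, up to 4 called genes per comparison or up to 2 as values, gate antigens, and the 3 genes most like each member. Gata1, Mcpt8, Ms4a2, Hbb-y, Cd34, Sox4, Satb1 and the genes whose promoters are printed fall outside that rule and were chosen after their values were seen. Lower bounds for the Bcl11a probe take each dim array at the lowest signal well above background. Probe positions were not used here. Of the target list, 1 gene is not reported here and was left out of its counts. Of the alternatives in the closing section, keeping flagged spots, quantile normalization without the compressed arrays and the refits of single probes were chosen after seeing the data. Figures were drawn with matplotlib 3.10.9.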

Additional observations from a re-analysis of the deposited data

Results flagged for a closer look

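The unfractionated cells enter no comparison, and both of their arrays carried signal of the Bcl11a probe A_51_P262998 well above background. Its level was -3.56 on replicate 1, a compressed array, and -3.65 on replicate 2. The highest level on any Kit+Gr1- or Gr1+ array was -5.39, so on this scale both lay above those fractions and below the Kit-Gr1- arrays. After quantile normalization replicate 2 still did, at 7.14 against at most 4.18 in those fractions, while the compressed replicate 1, at 2.98, lay within their range. No sorted group is large enough for a test of single outlying arrays.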

How the results depend on the processing

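Each result was recomputed under 27 alternatives. Of the 36 member differences, 3 were called as reported and 5 under some alternative; the added pair is Bcl11a under the mean of kept probes, which includes the probe kept through the Kit-Gr1- arrays. In all, 20 changed sign in at least 1 alternative, 75 times; in each of the 75 the reported or the alternative value lay within 1 SE of 0, and 0 were called where the sign had turned. The cause was not tested.

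Against Kit+Gr1- cells, the 2 members called in Gr1+ cells became 1 with array medians, normexp, the unscaled deposited values or no variance trend (Meis1) and with the mean of all kept probes (Ikzf1), and 0 with all 14 arrays. With single arrays left out the count ran from 0 to 2. In Kit-Gr1- against Gr1+ cells, the 1 call became 0 with the deposited values or all 14 arrays and ran from 0 to 1 with single arrays left out; the mean of kept probes called Bcl11a in place of Meis1. In Kit-Gr1- against Kit+Gr1- cells, 0 became 1 with the mean of kept probes (Bcl11a). The F-test's 1 became 2 with quantile normalization (Meis1, Myb), 2 with quantile normalization without the compressed arrays, and 3 with slide as a block (Meis1, Ikzf1, Bcl11a). With the mean of kept probes it called Bcl11a in place of Meis1. It became 0 with the deposited values, no variance trend or all 14 arrays, and 0 to 1 with single arrays left out (0 without Kit-Gr1- replicate 3, Gr1+ replicate 1 or Gr1+ replicate 2).

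In the pairing check, which array quality also enters, pairs with Kit-Gr1- arrays had correlations of -0.30 to 0.18. With the replicate block the F-test called 2 members (Meis1, Ikzf1), and 247 genes were called in Kit-Gr1- against Kit+Gr1- cells in place of 108. The block changed no other call of a member's standing probe.

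The signs turned as follows. With array medians, Kit-Gr1- against Kit+Gr1- cells gave 0.11 for Mecom, 0.26 for Myb, 0.14 for Lyl1 and 0.20 for Etv6, Kit-Gr1- against Gr1+ cells gave 0.17 for Mecom, 0.17 for Lyl1 and 0.20 for Etv6, and Gr1+ against Kit+Gr1- cells gave 0.00 for Bcl11a. With the deposited values, Sca1hi against Sca1lo cells gave 0.17 for Mecom, 0.08 for Lyl1 and 0.17 for Ikzf1, and Gr1+ against Kit+Gr1- cells gave -0.01 for Fli1. The mean of kept probes gave 0.01 for Etv6 in Kit-Gr1- against Gr1+ cells, and normexp gave 0.01 for Mecom and 0.04 for Ikzf1 in Sca1hi against Sca1lo cells. Quantile normalization gave 0.25 and 0.29 for Mecom in Kit-Gr1- against Kit+Gr1- and Gr1+ cells, and 0.01 for Myb, 0.08 for Lyl1 and 0.08 for Ikzf1 in Sca1hi against Sca1lo cells. Done without the compressed arrays, it gave 0.07 for Mecom, -0.09 for Fli1 and 0.02 for Etv6 in Kit-Gr1- against Gr1+ cells, 0.15 for Bcl11a in Gr1+ against Kit+Gr1- cells, and 0.02 for Mecom, 0.00 for Myb, 0.08 for Lyl1 and 0.06 for Ikzf1 in Sca1hi against Sca1lo cells. Slide as a block gave 0.10 for Mecom, -0.07 for Fli1, 0.04 for Etv6 and 0.18 for Bcl11a in Gr1+ against Kit+Gr1- cells, and -0.03 for Meis1 and 0.02 for Ikzf1 in Sca1hi against Sca1lo cells. Without the compressed arrays, Sca1hi against Sca1lo cells gave -0.08 for Meis1, 0.00 for Myb, -0.01 for Erg, 0.11 for Lyl1 and 0.11 for Ikzf1, Kit-Gr1- against Gr1+ cells gave 0.09 for Etv6, and Gr1+ against Kit+Gr1- cells gave 0.22 for Bcl11a.

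With single arrays left out, Sca1hi against Sca1lo cells ranged from -0.01 to 0.35 for Meis1, -0.18 to 0.21 for Mecom, -0.48 to 0.13 for Myb, -0.01 to 0.44 for Erg, -0.57 to 0.02 for Fli1, -0.45 to 0.10 for Lyl1 and -0.31 to 0.22 for Ikzf1. Gr1+ against Kit+Gr1- cells ranged from -0.19 to 0.06 for Mecom, -0.00 to 0.29 for Fli1, -0.16 to 0.12 for Lyl1, -0.39 to 0.07 for Etv6 and -0.16 to 0.08 for Bcl11a. Kit-Gr1- against Kit+Gr1- cells ranged from -0.24 to 0.06 for Myb, -0.37 to 0.09 for Lyl1 and -0.27 to 0.06 for Etv6, and Kit-Gr1- against Gr1+ cells from -0.32 to 0.13 for Lyl1 and -0.19 to 0.18 for Etv6.

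Counts over all genes also moved. Kit-Gr1- against Kit+Gr1- cells gave 108 calls as reported, 44 with array medians, 28 with no variance trend, 22 with all 14 arrays and 182 with slide as a block; 88 were higher and 20 lower as reported, 42 and 2 with array medians, and 52 and 37 with the deposited values. Gr1+ against Kit+Gr1- cells gave 1354 (951 higher, 403 lower), 693 with array medians (561 higher, 132 lower), 614 higher and 632 lower with the deposited values, 651 with all 14 arrays and 2367 by adjusted p alone; without the compressed arrays 1076 were higher and 911 lower. Kit-Gr1- against Gr1+ cells gave 1280, 561 with array medians and 517 with all 14 arrays. The F-test called 1596 genes, 508 with array medians, 3203 with quantile normalization, 950 with no variance trend, 413 with all 14 arrays, 2637 without the compressed arrays (3477 when quantile normalized) and 4260 with slide as a block. With single arrays left out, Kit-Gr1- against Kit+Gr1- cells gave 26 (without Kit-Gr1- replicate 3) to 161 calls, with 33 and 54 without Kit-Gr1- replicates 1 and 2 and 58 and 61 without Sca1lo replicates 1 and 3. Gr1+ against Kit+Gr1- cells gave 860 (without Gr1+ replicate 2) to 1669, Kit-Gr1- against Gr1+ cells 735 (without Gr1+ replicate 2) to 1632, and the F-test 675 (without Gr1+ replicate 2) to 3529 (without Sca1hi replicate 3). The shares of all genes called move with these counts. Signal near background limits the dim Bcl11a and Mecom probes.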

Other observations

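In unfractionated cells the 2 arrays disagreed for most members. On replicate 2, which was not compressed, the level was -2.37 for Meis1, -3.03 for Mecom, 3.88 for Myb and -3.58 for Erg. It was 2.64 for Fli1, 5.87 for Lyl1, 0.83 for Etv6, 2.24 for Ikzf1 and -1.25 for Bcl11a on that array. Replicate 1 gave 0.16 for Meis1, 0.75 for Myb, 2.71 for Lyl1 and 0.59 for Ikzf1.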
